A study of Danio rerio with 30 samples.

Results

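Chitinase genes and genes usually tied to the stomach were followed along the intestine of the adult zebrafish, a fish that has no stomach. The genes were the chitinase genes chia.1, chia.2, chia.3 and chia.4, the acid lipase gene lipf, the aspartic protease gene nots and the transcription factor gene sox2. They were taken by name, as every spot whose deposited gene symbol is one of these symbols or an older synonym. This gave 7 probes, 1 for each of the 7 genes, of the 9262 genes named on the array. The chitinases were deposited under the older names zgc:56053 (chia.1), zgc:55941 (chia.2), zgc:55406 (chia.3) and zgc:63792 (chia.4).

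Chitinases cut chitin, the polymer of arthropod shells and fungal walls, and in mammals an acidic chitinase is secreted in the stomach and lung. The mammalian stomach also secretes the gastric lipase encoded by LIPF, pepsins of the aspartic protease family and acid, and its lining is marked by the transcription factor SOX2, while the intestine behind it is marked by CDX factors. In a fish without a stomach, food passes from the oesophagus straight into a widened front part of the intestine, the rostral bulb.

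Total RNA of 7 segments of the intestine, S1 (rostral) to S7 (caudal), was compared with RNA of whole fish on spotted oligonucleotide arrays. By the study's dissection, the rostral bulb gave S1 and S2, the mid-intestine S3 and S4, and the caudal intestine the remaining segments. All fish were wildtype, about 1 year old by the methods, and no treatment is given. Each segment sample was a pool of that segment from 10 male fish, labelled with the dye Cy5, and the whole-fish reference was 9 parts male to 1 part female RNA, labelled with Cy3 on every array. There were 5 arrays each of S1, S2, S3 and S4, 4 of S5 and 3 each of S6 and S7, 30 in all. A segment holds every layer of the gut wall, so that fewer cells of a type and less RNA per cell cannot be told apart. Pooling leaves out the spread between single fish. No array carries the dyes the other way round, so dye bias of a probe is part of each ratio.

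Levels are given as the log2 ratio of Cy5 to Cy3 after normalization within each array, so that 0 is the level in whole fish and 1 is 2-fold above it. Between 37.8% and 69.6% of spots exceeded the local background in Cy5 on the S1-S5 arrays. The 6 arrays of S6 and S7 stood apart in the reference dye as well: over 20949 probes the mean correlation of their Cy3 signals with S1-S5 was r = 0.126, against 0.926 within S1-S5. Spots covered 80 pixels in this set and 120 to 460 pixels in the other. S1-S5 were therefore compared with each other, and S6 and S7 are given apart. Within S1-S5, spots of 120 pixels were on 2 arrays of S1, 4 of S2, 1 of S3 and none of S4 or S5. Spot size was thus not balanced between these segments. The labelled tissue was checked on enterocyte markers, and all 7 measured ones were at least 2-fold above whole fish in S1-S5. Their mean log2 ratio per array was 2.25 to 2.97 in S1-S4, 1.07 to 1.98 in S5 and between -0.88 and 0.02 in S6 and S7.

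Among S1-S5, 2 of the 6 members tested differed between the segments by limma's F test, chia.1 and lipf, where 6.17% of all 19362 tested probes did. Chia.1 ran high in front and low in S5, and lipf was highest in S5. Chia.2 was above whole fish in all 5 segments, with no call between them, and chia.3 and chia.4 were below whole fish in all 5. Nots lay close to or below whole fish, and the sox2 spot exceeded the background in Cy5 on none of the 24 arrays and was not tested. The plot of log2 ratios by array shows the values of each gene.

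**Figure D1:**
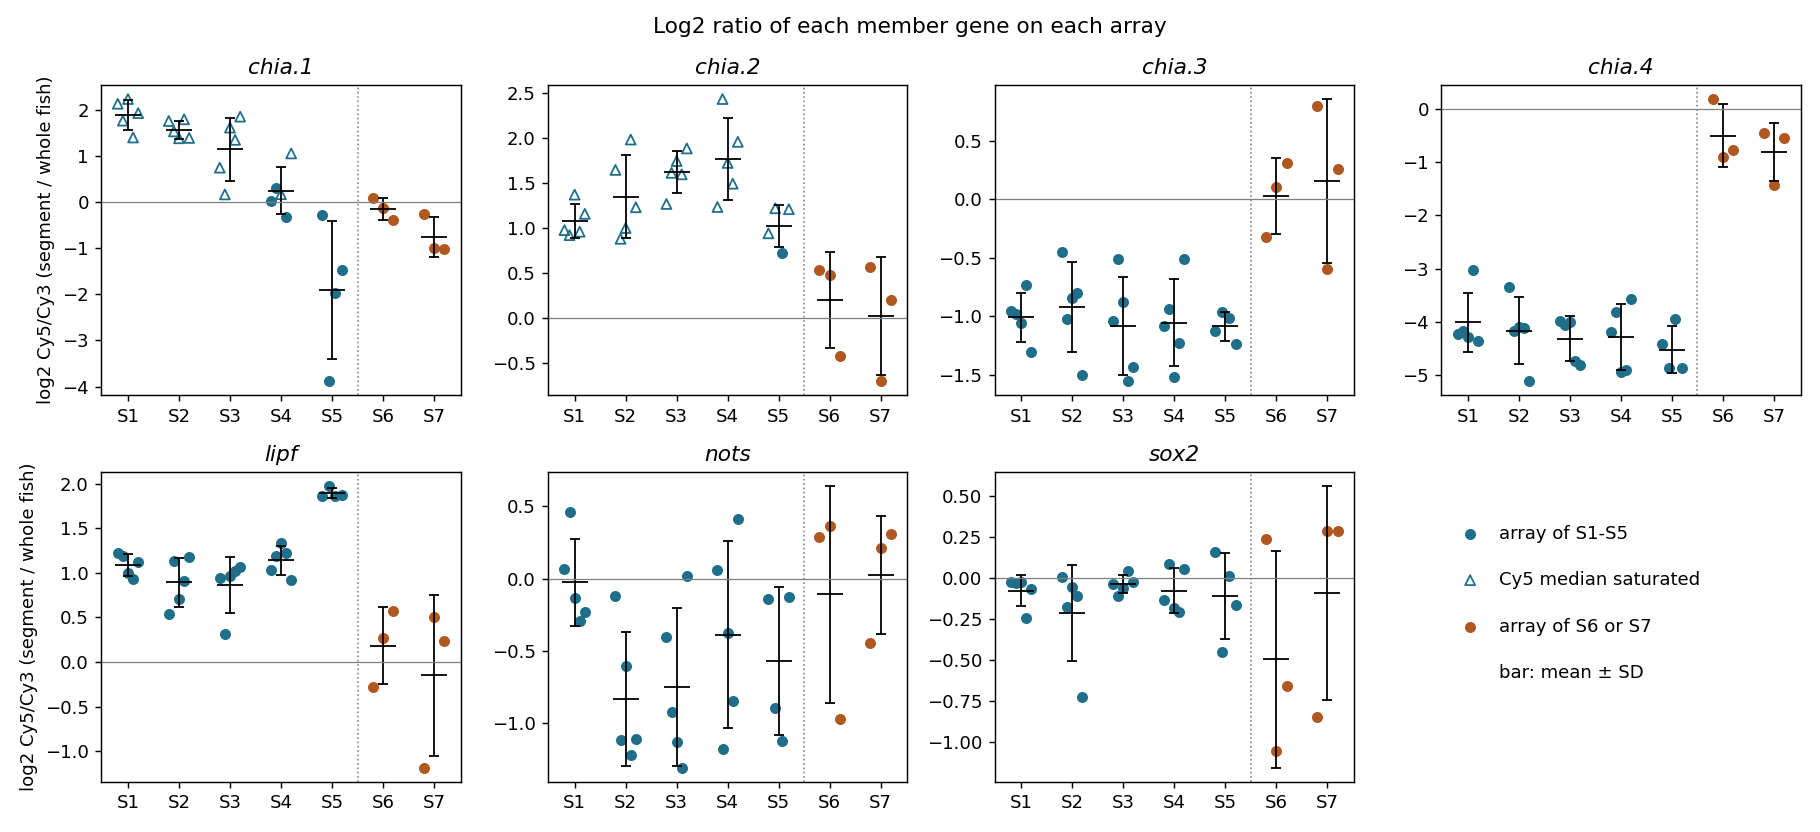
Log2 ratio of Cy5 (segment) to Cy3 (whole fish) of each gene on each array, by segment S1 to S7, with the mean and SD of each segment as bars. Open triangles are arrays on which Cy5 of the spot was saturated, and the dotted line sets S6 and S7 apart. In S5 all 4 arrays of lipf lie above the 20 arrays of S1-S4, while chia.1 has its lowest values there.

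Chia.1, one of the zebrafish genes related to mammalian acidic chitinase, had log2 ratios in S1 of 2.13, 1.76, 2.23, 1.40 and 1.93. In S2 they were 1.76, 1.53, 1.38, 1.79 and 1.39. Both segments of the rostral bulb were thus above whole fish on each of 10 arrays, and their ranges overlapped. In S3, the front of the mid-intestine, the values spread more widely, over 0.75, 0.17, 1.61, 1.35 and 1.85. In S4 they were 0.03, 0.30, 0.17, -0.33 and 1.05, all 5 below the lowest S2 value. In S5 they were -0.28, -3.87, -1.97 and -1.48, all below 0. The means fell from 1.89 ± 0.33 (SD, n = 5) in S1 over 1.57 ± 0.20, 1.14 ± 0.69 and 0.24 ± 0.51 to -1.90 ± 1.50 (SD, n = 4) in S5.

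The upper part of this gradient is not resolved, because the Cy5 spot of chia.1 was saturated on all 15 arrays of S1, S2 and S3 and on 2 of the 5 arrays of S4, replicates 3 and 5, and on none of S5. Cy3 was saturated on none of them. The mean brightness in Cy5 was 60385 to 65144 on the S1-S3 arrays, against a limit of 65535 for the scanner, and 16517 to 64678 in S4. In S5 it was 39373, 1919, 4199 and 6997. Where Cy5 stood at the limit, the ratio followed the reference: in S3 the 2 arrays with the lowest ratios, 0.75 and 0.17, had the brightest Cy3 spots, 29438 and 38795, and the other 3 had 10604 to 13739. No fold is therefore given between S1, S2 and S3.

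**Figure D2:**
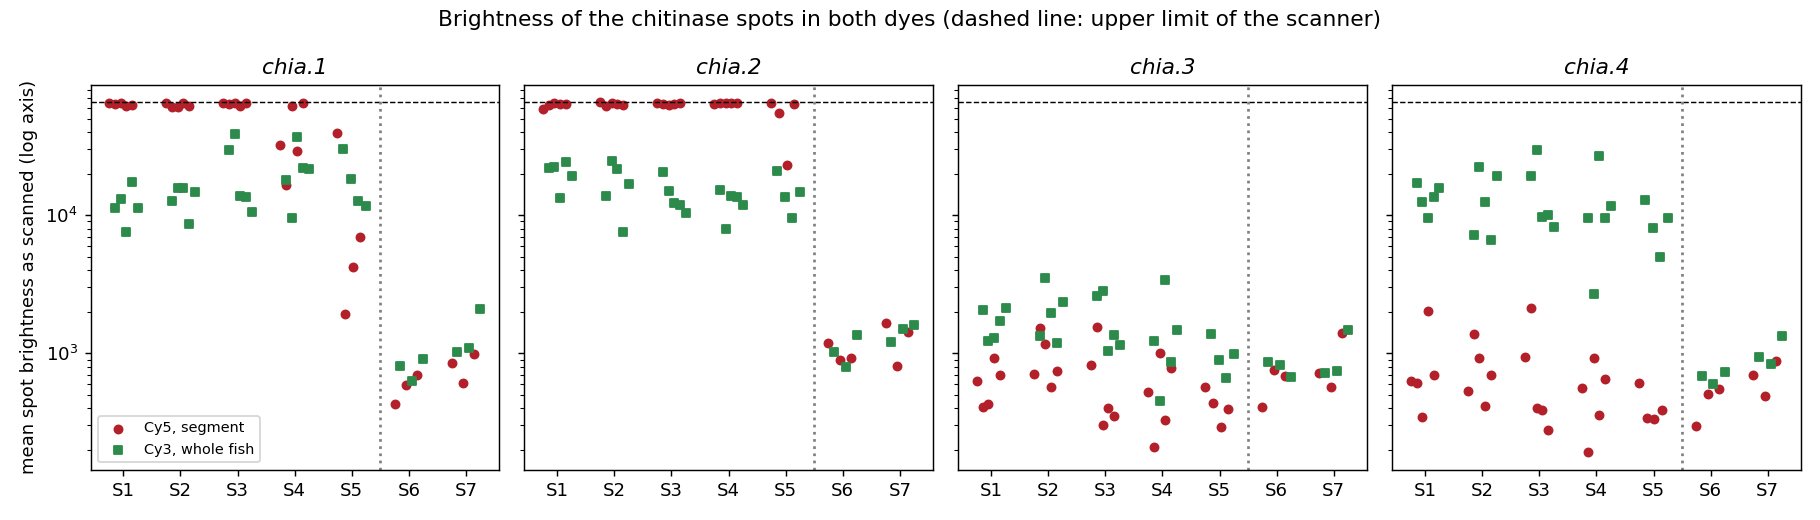
Mean spot brightness as scanned, on a log axis, of the 4 chitinase probes in Cy5 (segment, red circles) and Cy3 (whole fish, green squares), 1 point per array and dye, with the scanner's limit as a dashed line and S6 and S7 behind the dotted line. Cy5 of chia.1 is saturated on all arrays of S1-S3, on 2 of 5 in S4 and on none in S5. That of chia.2 is saturated on 23 of the 24 arrays of S1-S5, and chia.4 is bright in Cy3 alone in S1-S5.

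All S5 arrays of chia.1 lay below those of S1, S2 and S3. S5 and S4 overlapped, since S5 replicate 1, at -0.28, lay above S4 replicate 4, at -0.33. By limma's F test among S1-S5, chia.1 had an adjusted p of 3.80e-05. S5 was below S1-S4 by a log2 difference of -3.11 (SE 0.37, adjusted p = 5.78e-06 from limma), where 5.53% of all probes passed in either direction and 2.82% were lower in S5. For each gene limma takes the same spread in all segments. The ratios of chia.1 had an SD of 1.50 in S5, against 0.20 to 0.69 in S1-S4. The SE and p of its tests with S5 therefore do not reflect its spread there. Since 17 of the 20 S1-S4 arrays were saturated in Cy5, the fitted size is not a measured fold, and a bound was taken from the channel itself. In the Cy5 channel alone, after loess within arrays and Aquantile normalization between all 30 arrays, S1-S4 were at least 5.23-fold brighter than S5. This bound sets the mean of the bright arrays, saturated spots at their recorded value, against the mean of the S5 arrays, and is open to dye bias. It does not cover the spread between the S5 arrays, whose Cy5 had an SD of 1.49 in log2. Without S5 replicate 2, the lowest array, the log2 difference was -2.45.

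S1 against S2-S5 also passed, with a fitted log2 difference of 1.63 (SE 0.34, adjusted p = 0.00743 from limma), where 2.36% of probes passed. Cy5 was saturated on all 5 S1 arrays and on 12 of the 19 others, so that this size was not measured and no bound can be given. The mean Cy3 signal of the spot was also lowest in S1. This call was lost when only arrays with large spots were used (adjusted p = 0.153) and under scale normalization (adjusted p = 0.0590). Between neighbours, the step from S4 to S5 passed with a log2 difference of -2.14 (SE 0.46, adjusted p = 0.0129), where 1.45% of probes did. In mean Cy5, S4 was at least 4.19-fold above S5, with 2 of the 5 S4 arrays saturated. This bound holds for the means only, and single arrays of S4 and S5 overlapped. Without S5 replicate 2 the log2 difference of this step was -1.48 (adjusted p = 0.0535). The steps from S1 to S2, S2 to S3 and S3 to S4 had adjusted p of 0.878, 0.744 and 0.781. Mid-intestine against bulb did not pass (adjusted p = 0.0876). Its size could not be measured either, with Cy5 saturated on all 10 bulb arrays and on 7 of the 10 of the mid-intestine.

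None of the 6 members passed the test of mid-intestine against bulb, where 2.08% of probes did, although chia.1 and chia.2 were under an unadjusted p of 0.05. The 3 steps within S1-S4 called none of the 6 either, where 0.816%, 0.356% and 0.0258% of probes passed. At an unadjusted p under 0.05 they held 1, 0 and 1 members.

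Of the markers measured beside it, 3 of 7 enterocyte markers were also lower in S5, namely apoa4a (-2.68, adjusted p = 3.19e-07), which encodes an apolipoprotein, mttp (-1.12, adjusted p = 1.08e-05), whose product loads lipoproteins, and slc15a1b (-1.60, adjusted p = 3.44e-05), a peptide transporter gene. The enterocyte marker vil1, of the brush border, had a difference of 0.07 (adjusted p = 0.899). Its dimmer probe had -0.71, also without a call (adjusted p = 0.166). The markers apoa1a, fabp2 and rbp2a were not called either, but their Cy5 was saturated on 23, 22 and 22 of the 24 arrays. That of apoa4a was saturated on 9. Of all probes, 2.82% were called lower in S5. The part of enterocyte number in the fall of chia.1 was not tested.

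The genes whose ratios over the 24 arrays were most like those of chia.1 were cyp2x8 (r = 0.916), a cytochrome P450 gene, slc13a1 (r = 0.904), a sulfate transporter gene, and slc34a2a (r = 0.890), a phosphate transporter gene. The 24 arrays share the reference and the array set, and this likeness is a description over 9791 named probes. None of the 3 was saturated in Cy5. Their segment means fell from 2.16 to 0.11 for cyp2x8, from 2.30 to -0.08 for slc13a1 and from 2.64 to -0.39 for slc34a2a between S1 and S5. They were chosen for this likeness, which rests on ratios of chia.1 saturated on 17 arrays, and their course says nothing of the unresolved part of its gradient.

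Chia.2, which lies on chromosome 11 like chia.1 and chia.3 in the RefSeq gene table of assembly GRCz12tu, kept a high level throughout. Its log2 ratios were 0.98, 0.92, 1.37, 0.96 and 1.16 in S1 and 1.65, 0.88, 1.00, 1.98 and 1.23 in S2. In the mid-intestine they were 1.27, 1.61, 1.75, 1.60 and 1.89 in S3 and 1.24, 2.43, 1.73, 1.49 and 1.96 in S4. In S5 they were 0.94, 1.22, 0.73 and 1.21. All 24 arrays lay above whole fish. S1, S2 and S5 overlapped, as did S2, S3 and S4, and the highest S5 array lay just below the lowest of S3 and S4.

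The mean of chia.2 over S1-S5 was 1.37 above whole fish (SE 0.067, adjusted p = 4.86e-15), and the authors' value table gave 2.13. Cy5 was saturated on 23 of the 24 arrays and Cy3 on none, so that the size of the difference was not measured. The F test among S1-S5 gave an adjusted p of 0.0853, and the step from S4 to S5 a log2 difference of -0.74 (SE 0.22, adjusted p = 0.116). Leaving out S2 replicate 4 or S4 replicate 1 brought the F test to 0.0450 or 0.0399. With Cy5 at its ceiling on nearly every array, a difference between these segments was not measurable in that dye.

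Against whole fish, all 6 tested members passed, as did 86.4% of all probes, so sizes are given beside it. Chia.2 and lipf were at least 2-fold above whole fish over S1-S5, as were 8.31% of probes. Chia.3 and chia.4 were at least 2-fold below, as were 13.0%. Chia.1 was above by 0.59 (SE 0.14, adjusted p = 0.000444) as the mean of the 5 segments and by 1.31 in the authors' value table, with Cy5 saturated on 17 of the 24 arrays.

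Chia.3, also on chromosome 11, was dim in the intestine. Its 24 log2 ratios in S1-S5 ran from -1.55 to -0.45, with segment means of -1.01, -0.92, -1.08, -1.05 and -1.08. Every array was below whole fish and all segments overlapped. Cy5 exceeded the background on 8 of the 24 arrays and on none of S5, and Cy3 on all 24, so that the ratio carries mainly the signal of the whole fish. Over S1-S5 the log2 ratio was -1.03 (SE 0.066, adjusted p = 6.13e-13), and whole fish were at least 2.04-fold above the segments. This bound takes Cy5 of an array without signal at its own value or at the lowest signal above background there, whichever is higher. For chia.3 and chia.4 the own value was used on every array. The bound is therefore close to the fitted ratio, and it is open to dye bias. The F test had an adjusted p of 0.963, but with Cy5 at background on 16 arrays a difference between segments was not detectable.

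Chia.4, on chromosome 23, was furthest below whole fish. Its log2 ratios in S1-S5 ran from -5.11 to -3.03, with segment means of -4.01 ± 0.55, -4.17 ± 0.63, -4.32 ± 0.42, -4.28 ± 0.63 and -4.52 ± 0.44 (SD, n = 5, in S5 n = 4). The segments overlapped in full, with an adjusted p of 0.829 for the F test. The mean was -4.26 (SE 0.10, adjusted p = 1.77e-20), and by the same bound whole fish were at least 19.0-fold above the segments. In Cy3 the spot was among the brightest of the arrays, with a median brightness of 10874.5 and a median percentile of 97.3 among the spots other than controls. In Cy5 it had a median of 585 and exceeded the background on 16 of the 24 arrays, at least 2 in each segment.

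Over the 24 arrays the ratios of chia.3 and chia.4 correlated at r = 0.806 with each other, while those of chia.1 and chia.2 correlated at 0.158 in saturated spots, both as a description over arrays that share the reference. Cy5 exceeded the background on 8 of the 24 arrays for chia.3 and on 16 for chia.4. The r of 0.806 and the likenesses to either gene thus rest partly on spots at background. The genes most like chia.4 were ripor3 (r = 0.949), bmp15 (r = 0.940), which encodes an oocyte growth factor, and kpna7 (r = 0.938), an importin gene. Those most like chia.3 were wdhd1 (r = 0.891) and skp2 (r = 0.889), of DNA replication and the cell cycle, and nadk2 (r = 0.888). All 6 were below whole fish in each of the 5 segments, with means between -1.40 and -5.15. Most like chia.2 were apoa4b.1 (r = 0.740), apoea (r = 0.721) and rbp2a (r = 0.653), genes of lipoproteins and retinoid binding whose Cy5 was itself saturated on 20, 19 and 22 arrays.

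The reference includes female fish and holds all organs. Of the germ cell markers, dazl (-3.58), ddx4 (-2.26) and zp3 (-4.63) were also at least 2-fold below whole fish in S1-S5, 3 of 4 measured. Cy3 of zp3 was saturated on 23 of these arrays, so that the size of its difference was not measured. Cy5 exceeded the background on 16 arrays for dazl, on 8 for zp3 and on 1 for ddx4. The ratio of ddx4 therefore carries mainly the signal of the whole fish. The mean log2 ratio of the germ cell list ran from -3.62 to -1.25 per S1-S5 array. At least 2-fold below whole fish were also 3 of 4 skeletal muscle, 5 of 8 liver and 4 of 8 stratified epithelium markers, and 13.0% of all probes. A place below whole fish was thus not particular to germ cell markers. The tissue of the fish that gives the Cy3 signal of chia.4 was not tested.

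Among the other chitin-related genes, 4 of 5 listed were measured and 3 tested. Chs1, the gene of a chitin synthase, which makes the polymer that chitinases cut, was above whole fish by 2.78 (SE 0.052, adjusted p = 2.21e-22). Its segment means were 2.40, 2.72, 2.86, 3.03 and 2.86, Cy5 was above the background on all 24 arrays and saturated on none, and the F test did not pass (adjusted p = 0.104). Chid1, of a chitinase domain protein, was below whole fish by -0.38, with an F test of 0.784. Ctbs, the gene of the lysosomal chitobiase, passed as higher in S5 by 0.81 (SE 0.14, adjusted p = 0.000734), but its Cy5 exceeded the background on 1 array only. Chia.6 was above the background on 3 arrays and was not tested. Over the 3 genes the median of the difference of S5 from S1-S4 was 0.13, and -0.04 over all probes.

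**Figure D3:**
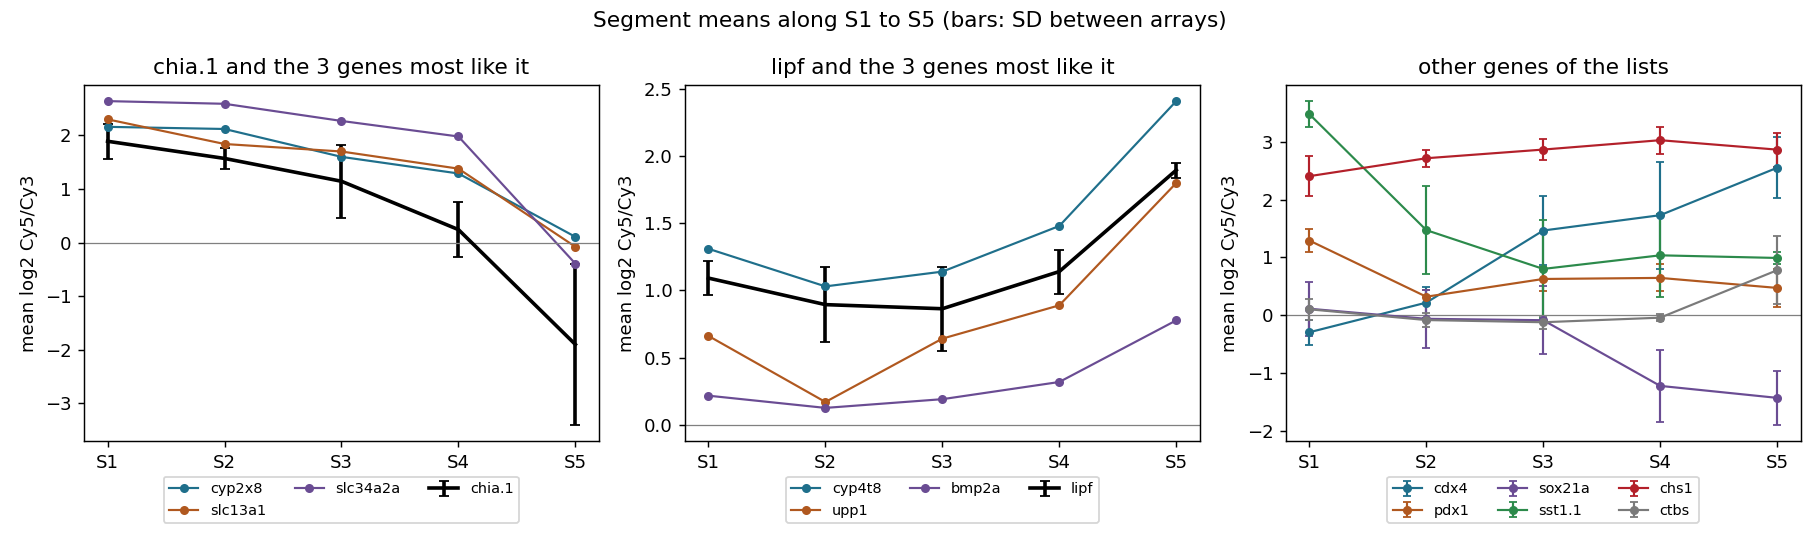
Mean log2 ratio of Cy5 to Cy3 in S1 to S5: left, chia.1 with the 3 genes most like it; middle, lipf with the 3 genes most like it; right, 6 other genes of the lists. Bars are SD between arrays, drawn for chia.1, lipf and the right panel. Chia.1 and its likes fall into S5, lipf and its likes rise there, chs1 stays between 2.40 and 3.03, and sst1.1 is highest in S1.

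Lipf, named after the gastric lipase of mammals, was highest in S5, where chia.1 was lowest. Its log2 ratios were 1.22, 1.19, 1.00, 0.93 and 1.13 in S1 and 0.54, 1.14, 0.70, 0.91 and 1.18 in S2. In the mid-intestine they were 0.94, 0.31, 0.97, 1.02 and 1.07 in S3 and 1.03, 1.19, 1.34, 1.23 and 0.92 in S4. In S5 they were 1.87, 1.98, 1.86 and 1.88. The 4 arrays of S5 lay close together and above all 20 arrays of S1-S4, whose segments overlapped. The means were 1.09 ± 0.13, 0.89 ± 0.28, 0.86 ± 0.31 and 1.14 ± 0.16 (SD, n = 5) in S1-S4 and 1.90 ± 0.055 (SD, n = 4) in S5.

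By limma, lipf was higher in S5 than in S1-S4 by 0.90 (SE 0.12, adjusted p = 3.20e-05), 1.86-fold, where 2.71% of probes were higher in S5. The F test among S1-S5 had an adjusted p of 3.84e-04. The spot was saturated on no array, and exceeded the background on 23 of 24 arrays in Cy5 and on 21 in Cy3, 2 of 4 in S5. The step from S4 to S5 was 0.76 (SE 0.15, adjusted p = 0.00639), but did not pass under median centring (adjusted p = 0.0594), scale normalization (adjusted p = 0.125) or the fit on all 30 arrays (adjusted p = 0.241). Over S1-S5 lipf was 1.18 above whole fish (SE 0.046, adjusted p = 5.82e-17), 2.26-fold, and above it on all 24 arrays.

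The genes most like lipf were cyp4t8 (r = 0.883), a cytochrome P450 gene, upp1 (r = 0.841), of uridine breakdown, and bmp2a (r = 0.832), a signalling ligand gene. Each was highest in S5, with means of 2.41, 1.80 and 0.78. The ratios of lipf and chia.1 correlated at r = -0.686 over the 24 arrays, with Cy5 of chia.1 saturated on 17 of them. Both genes were called for S5 in opposite directions, so this r is no separate result. In S5 the 3 measured markers listed together for ileum-like and lysosome-rich enterocytes of the caudal gut were also higher: fabp6 by 6.68, dab2 by 3.44 and lgmn by 2.52. Their mean log2 ratio was 1.85 to 2.33 on the S5 arrays and -3.28 to -0.71 on those of S1-S4. The 8 tested exocrine pancreas markers were higher in S5 too, where their list's mean ratio was 0.95 to 1.73, against 0.87 to 1.67 in S4 and -0.31 to 0.42 in S1-S3. Their Cy5 was saturated on 22 to 24 of the 24 arrays, so that these differences were not measured in size. Of all probes, 2.71% were called higher in S5. The part of these cell types in the course of lipf was not tested.

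Of 10 other lipase genes listed, 5 were measured and 4 tested. Cel.2, of the pancreatic bile salt-dependent lipase, was higher in S5 by 1.18 (SE 0.22, adjusted p = 0.00125) with Cy5 saturated on all 24 arrays. Lipca, of hepatic lipase, was higher in S1 than in S2-S5 by 0.51 (SE 0.12, adjusted p = 0.0211). Lipg, of endothelial lipase, was below whole fish by -2.83, and lipia, a relative, above by 0.30, both without a difference among S1-S5 (adjusted p = 0.914 and 0.664). Cel.1 was not tested. The list's median difference of S5 from S1-S4 was -0.11, and -0.04 over all probes.

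Nots encodes nothepsin, an aspartic protease related to cathepsin D and pepsin that was described from the liver of female zebrafish. Its log2 ratios in S1 were 0.07, 0.46, -0.14, -0.29 and -0.23, close to whole fish. In S2 they were -0.12, -1.11, -0.60, -1.22 and -1.11, and in S3 to S5 they ran from -1.31 to 0.41. S1 overlapped with each of the other segments. From S1 to S5 the means were -0.03 ± 0.30, -0.83 ± 0.47, -0.75 ± 0.55, -0.39 ± 0.65 and -0.57 ± 0.51 (SD, n = 5, in S5 n = 4). S1 stood above S2-S5 by 0.61 (SE 0.24, adjusted p = 0.259) and the F test gave 0.355, so no difference between segments was called. The spot exceeded the background on all 24 arrays in both dyes. Over S1-S5 nots was below whole fish by -0.51 (SE 0.098, adjusted p = 4.03e-05), 1.43-fold lower.

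Liver markers were measured beside nots: 7 of 8 were higher in S1 than in S2-S5, where 2.36% of all probes passed in either direction. Among them were ambp by 1.51 and fga by 1.54. The mean log2 ratio of the 8 markers per array was -0.27 to 0.33 in S1 and -2.24 to -0.53 in S2-S5. Most like nots over the 24 arrays were pax9 (r = 0.800), a pharyngeal transcription factor gene, a probe of lipca (r = 0.787) and eif4ebp3 (r = 0.759). The part of liver RNA in the S1 level of nots was not tested.

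Of 8 other aspartic protease genes listed, 4 were measured. Ctsd, the lysosomal cathepsin D gene, rose along the gut, with means from S1 to S5 of 0.33, 0.47, 0.75, 1.62 and 1.46 (F test, adjusted p = 0.00120). Bace1 was higher in S1 by 0.81 (SE 0.21, adjusted p = 0.0358), without a call by the F test (adjusted p = 0.0772). Bace2 (F test, adjusted p = 0.710) and napsa (0.0713) showed no call. The median difference of S5 from S1-S4 over the 4 was 0.27.

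Sox2, which marks foregut and stomach lining in mammals and neural cells widely, gave no usable signal in S1-S5. The mean Cy5 brightness of its spot was 117 to 525, above the background on none of the 24 arrays, and Cy3 exceeded it on 1. The log2 ratios, from -0.73 to 0.16, are those of spots at background and say nothing of its level. On the S6 arrays Cy5 exceeded the background on 2 of 3 and Cy3 on all 3, with ratios of 0.23, -1.06 and -0.66. On the S7 arrays Cy5 did so on none of 3.

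Of 23 other transcription factor genes of foregut, stomach and intestine, 16 were measured and 14 tested. By the F test 4 differed among S1-S5, where 6.17% of all probes did. Pdx1, of the anterior gut and pancreas, was higher in S1 by 0.78 (SE 0.11, adjusted p = 0.000242), with a mean of 1.29 there and 0.32 to 0.65 behind it. Cdx4, of the caudal gut, rose from -0.29 in S1 to 2.55 in S5 (F test, adjusted p = 3.61e-05), with Cy5 above the background on 5 of 24 arrays. Sox21a, a relative of sox2, was lower in S5 by -1.11 (SE 0.27, adjusted p = 0.0156), with Cy5 above the background on 16 of 24 arrays. Its means were 0.11, -0.06 and -0.09 in S1-S3 and -1.22 and -1.43 in S4 and S5. Gata4 fell between bulb and mid-intestine by -0.73 (adjusted p = 0.00900), with Cy5 above the background on 13 of 24 arrays. Cdx1a, next to these by the size of its S5 difference, was 0.46 higher there without a call (adjusted p = 0.113). The list's median ratio to whole fish was 0.57, and 0.01 over all probes.

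Of 23 gastric secretion and mucus genes listed, those of the proton pump, gastrin, ghrelin, trefoil factors and gastric mucins among them, 2 had a named probe among those analysed here, so that the label "stomach-type" could not be checked on its defining genes. Sst1.1, the somatostatin gene, had means of 3.48 ± 0.23 in S1 and 1.47 ± 0.77, 0.80 ± 0.85, 1.04 ± 0.72 and 0.99 ± 0.099 in S2 to S5 (SD). It was higher in S1 by 2.40 (SE 0.30, adjusted p = 3.96e-05). Tcn2, of vitamin B12 transport, was level at 1.73 to 1.94 (F test, adjusted p = 0.979). Both were at least 2-fold above whole fish. The stratified epithelium markers, which would mark oesophagus and also mark skin, showed none of 8 called by the F test in S1-S5. Of all probes, 6.17% passed it. Against whole fish, which includes skin, 4 of the 8 were at least 2-fold lower, among them krt5 (-4.51) and tp63 (-1.53). Cy5 of tp63 exceeded the background on 2 arrays. Evpla, an envoplakin gene, was higher by 1.07 and krt4, a keratin gene, by 0.80.

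On the S6 and S7 arrays most members were dim. Of the 6 arrays, Cy5 exceeded the background on 2 for chia.1 and chia.3, 1 for chia.4, 4 for chia.2, 2 for lipf, none of them in S7, and all 6 for nots. A ratio near 0 from spots at background is no level near that of whole fish. The log2 ratios of the members ran from -1.44 to 0.79, and chia.1 had means of -0.15 and -0.76, chia.2 of 0.20 and 0.03, chia.3 of 0.03 and 0.15, chia.4 of -0.50 and -0.81, lipf of 0.18 and -0.15 and nots of -0.11 and 0.03. Against S1-S5, 4 of 7 members differed in S6, where 51.8% of all 20949 probes did, and 5 of 7 in S7, where 52.9% did. Chia.2 and lipf were lower on both: chia.2 by -1.17 and -1.34 (adjusted p = 0.000167 and 2.67e-05) and lipf by -0.99 and -1.33 (adjusted p = 0.000359 and 9.04e-06). Chia.3 and chia.4 were higher on both: chia.3 by 1.06 and 1.18 (adjusted p = 0.000307 and 7.77e-05) and chia.4 by 3.76 and 3.44 (adjusted p = 1.39e-10 and 6.25e-10). Chia.1 was lower in S7 by -1.35 (adjusted p = 0.00423) and by -0.74 in S6 (adjusted p = 0.108).

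These differences came with the change of the reference signal. The Cy3 spot of chia.4, described as the same whole-fish RNA, went from a median brightness of 10874.5 on the S1-S5 arrays to 686 and 945 on those of S6 and S7, and from a median percentile of 97.3 to 44.2. For chia.1 that percentile went from 98.0 to 57.6 and for chia.2 from 97.9 to 65.5. In Cy5, chia.4 had medians of 506 and 694, against 585 in S1-S5, and exceeded the background on 1 of 3 S6 arrays and none of 3 S7 arrays. Array set and segment cannot be told apart, and none of these values is a level of the gene in the caudal intestine that can be set beside S5.

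Within that array set, S7 differed from S6 for none of the 7 members (adjusted p from 0.383 to 0.891, and 0 at an unadjusted p under 0.05), where 8.26% of probes did. By limma's F test over the 7 segments, at the study's threshold of a Bonferroni corrected p under 0.1, 4 of 7 members passed, where 14.5% of probes did: chia.4 (1.94e-08), chia.1 (8.79e-05), lipf (0.0131) and chia.2 (0.0465). By the F test without limma's moderation, the kind named in the methods, 3 of 7 passed and chia.2 did not (0.291). With S1-S5 alone, by limma's F test, chia.1 and lipf remained.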

How the data were processed

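The deposited intensity values are the brightness of each of 23232 spots and of its local background in Cy5 and Cy3 as scanned, without normalization. The authors' log2 values are the binary logarithm of the ratio of the dyes, scaled by a factor per array, although LOWESS within and across arrays is named in the methods. Per the methods 10 µg of RNA was labelled with aminoallyl-dUTP, per the labels 20 µg with dye-coupled dUTP. The spot-finding software is not given in the sources used here. Probes were designed from the 3′ untranslated region per the methods, and their sequences were not analysed here.

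Background was corrected in limma 3.58.1 under R 4.3.3 (normexp, offset 50), and log2 Cy5/Cy3 was normalized by loess within each array, with nothing scaled between arrays. Only the normalized brightness of a single dye, used for the bounds, also went through Aquantile normalization between all 30 arrays, S6 and S7 included. The 245 control spots, printed at least 10 times, were left out. Tested probes needed a spot median more than 2 background SD above background, in Cy5 or Cy3, on 3 or more arrays of any segment, which left 19362 in S1-S5 and 20949 in S1-S7. A spot median of 65535 was called saturated. Of 11724 spots with a symbol, 3568 symbols were current in the RefSeq gene list of assembly GRCz12tu, 8022 were older synonyms and 134 were kept. Files were read with data.table (version 1.17.8).

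limma's moderated F test and contrasts were fitted on the 24 S1-S5 arrays, and on all 30 for S6 and S7, with Benjamini-Hochberg adjustment over all tested probes at 0.05. Replicates are labelled as biological and are separate pools, and their number limits the precision. In simulated data on 19362 probes with S5 changed against S1-S4, 82.0% of log2 changes of 1 and 97.0% of changes of 2 were recovered. The simulated noise was independent for each probe and array, so error shared by the probes of an array was not covered. Recovery at saturated spots or spots at background, such as many of the chitinase spots, was not tested.

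Named are the 7 members, listed genes of their pathways (for over 10 measured, those passing the F test and the 3 with the largest S5 difference) and the 3 named probes most like each member. The brightest probe stood for a listed gene. Members and lists were chosen with earlier results of these data known. Whether a chitinase probe also binds a related transcript was not tested. Alternatives were no background correction, an offset of 16, median centring, scale and Aquantile normalization, the authors' log2 values, no filter, saturated spots as missing, the replicate number as a block, 30 arrays in every fit, a plain ANOVA, S1-S5 alone and each array left out. Spot size as a block and large spots alone (200 pixels or more) were added after seeing the data.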

Additional observations from a re-analysis of the deposited data

Results flagged for a closer look

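In groups of 4 or 5 arrays, 4 of 35 sets of values held 1 array far from the others of its segment, where chance alone marks about 1 in 20 sets. Chia.4 in S1 replicate 4 had a log2 ratio of -3.03, against -4.35 to -4.16 on the other 4 arrays. Lipf in S3 replicate 2 had 0.313, against 0.94 to 1.07. The other 2 are the sox2 spot, which was at background: -0.246 in S1 replicate 4, against -0.07 to -0.03, and -0.725 in S2 replicate 5, against -0.18 to 0.00. All 4 values come from arrays with spots read over 120 pixels, that of chia.4 and 1 of sox2 from the same array, S1 replicate 4. The sets share arrays and are not independent. S1-S5 held 7 arrays with such spots and 17 with larger spots.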

How the results depend on the processing

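The main limits are saturation of chia.1 and chia.2 in Cy5, dim Cy5 spots of chia.3 and chia.4, an array set of its own for S6 and S7, and the number of arrays. The calls of chia.1 and lipf in S5 against S1-S4 and in the F test among S1-S5 kept their direction and passed under every alternative that gave a value and without any single array. With saturated spots missing, chia.1 and chia.2 had too few values to be fitted.

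Over all probes, leaving out 1 array at a time gave 871 to 1801 probes in the F test among S1-S5 (1195 with all arrays), 257 to 588 for mid-intestine against bulb (402), 586 to 1338 for S5 against S1-S4 (1071), 311 to 548 for S1 against S2-S5 (457), 330 to 1344 for the steps (513), 3998 to 4253 at least 2-fold from whole fish (4135), 9380 to 11354 for S6 (10855), 9075 to 11661 for S7 (11085), 562 to 2763 for S7 against S6 (1731) and 2635 to 3197 for the F test over 7 segments (3041). Counts moved by over 1.5 times without S5 replicate 2 (S5, lowest), S2 replicate 5 (the F test among S1-S5 and the steps, highest), S1 replicate 3 and S2 replicate 4 (the steps, downward), S4 replicate 4 (mid-intestine, lowest) and S7 replicates 4 and 5 (S7 against S6, highest and lowest). The fit on all 30 arrays gave 632 probes in the F test among S1-S5, 210 for mid-intestine, 511 for S5, 286 for S1 and 276 for the steps. Median centring gave 655 for S5, 878 for the steps and 1048 for S7 against S6. For S7 against S6, no background correction gave 5 probes and the authors' values gave 163, and those values gave 6864 probes at least 2-fold from whole fish. S1-S5 alone gave 218 under the Bonferroni rule. Arrays with large spots alone, added after seeing the data, gave 783 in the F test, 147 for mid-intestine and 254 for S1. The cause of these moves was not tested.

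Same-numbered arrays of different segments correlated at -0.629 to 0.526 in their deviations (median 0.034), with 16 of 46 pairs over 0.1. Differently numbered arrays correlated at -0.602 to 0.593 (median -0.014), with 40 of 184 pairs over 0.1. Whether same-numbered pools came from the same fish was not tested. With the replicate number as a block, 1216 probes passed the F test among S1-S5, 463 mid-intestine against bulb, 1063 S5, 537 S1, 503 the steps, 4144 whole fish, 10663 S6, 10956 S7, 1745 S7 against S6 and 2617 the F test over 7 segments, where chia.2 no longer passed (0.206). Chia.2 was also lost there by scale normalization (1.00), the plain ANOVA (0.291), S1-S5 alone and without each of 9 single arrays, and lipf by median centring (0.198) and scale normalization (0.134), while chia.3 passed with no background correction (0.0637), under median centring (0.0276) and without S7 replicate 4 (0.0951). Chia.1 in S6 passed under median centring (-1.33, adjusted p = 0.00530), with the authors' values (-1.82, adjusted p = 0.00150) and without S5 replicate 2, and its step from S4 to S5 was lost by scale normalization (adjusted p = 0.103). Mid-intestine against bulb passed for chia.1 without S4 replicate 5, S5 replicate 1 or S5 replicate 2 (adjusted p from 0.0128 to 0.0449) and for chia.2 without S2 replicate 4 (0.0384). Nots in S6 passed without S6 replicate 5 (0.84, adjusted p = 0.0453).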
